A study of Arabidopsis thaliana with 6 samples.

Results

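The 200 most abundant nuclear transcripts of wild-type Arabidopsis thaliana leaves were examined for what they encode and for how their levels differed in the atrap mutant. Arabidopsis thaliana is a weed of the mustard family and a standard model plant. The members were chosen by their level: manufacturer's controls and plastid- or mitochondrion-encoded genes were left out, and of the 13421 remaining probe sets paired with exactly 1 gene, the 200 with the highest mean over the 3 wild-type arrays were taken. A probe set is the group of short array probes that reads 1 transcript, and its level is an RMA value on the log2 scale, so that 1 unit is a doubling. The 200 probe sets stood for 200 genes among 22746 probe sets compared in all.

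RNA came from rosette leaves of plants 3 weeks old, of genotype WT or carrying the mutation named atrap, with 3 arrays per genotype that the labels call biological replicates. All plants were grown at 23 °C under days of 12 h of light, without treatment. The sources used here do not give the ecotype, the kind of allele, the number of plants per sample or the hour of harvest, so p-values measure the spread between these samples only. RAP, for which ATRAP is an alternative name, read 7.69 ± 0.22 in WT and 6.53 ± 0.19 in atrap (log2 mean ± SD, n = 3 each; limma, adjusted p = 0.00741), which places it at rank 4037 of the 13421 in WT and far below the members.

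In a green leaf a large share of messenger RNA serves photosynthesis. Nuclear genes encode the antenna proteins that collect light, many small subunits of the photosystems and the enzymes of carbon fixation, and their products are imported into the chloroplast. A second large share serves the protein synthesis machinery and basic metabolism. The brightest probes of an array can approach their upper limit, where differences are compressed.

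The list does not hold every abundant transcript. The last member lay at rank 619 of all 22746 probe sets, and 388 of those 619 (62.7%) were paired with several genes or with none in the gene table and so could not enter, while 31 were organelle genes. Of the leaf mesophyll markers sought, 3 of 12 were paired with a probe set here, and all 3 (RCA, PSAN and LHCB4.3) were members. Of the root, seed, flower, pollen and guard-cell markers, 4 were paired with a probe set. The root-hair expansins EXPA7 and EXPA18 read 5.18 and 5.84, the pollen marker AT1G29140 read 4.16 and the guard-cell regulator FMA 7.01 (log2 levels, n = 3), against a median of 6.55 over all probe sets, and 0 of these 4 passed the limma test with Benjamini-Hochberg adjustment (smallest adjusted p = 0.102). None of the 6 seed markers was paired.

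Some technical readings differed between the genotypes. The 24 probe sets of the poly-A spike-ins, RNAs added to a sample before labelling, averaged 6.75, 6.88 and 7.06 in the WT arrays and 6.44, 6.50 and 6.59 in the atrap arrays (log2). The difference between 3′ and 5′ probe sets of actin, a reading of RNA integrity, was 1.07 to 1.22 on the WT arrays and 0.97 to 1.02 on the atrap arrays for 1 pair of probe sets, and 2.61 to 2.68 against 2.28 to 2.31 for another (log2). The part of these readings in the differences given here was not tested. The hybridisation spike-ins read 9.95 on WT replicate 1 and 10.38 to 10.62 on the other 5 arrays. The median over the 200 members was 12.12 to 12.20 on the WT arrays and 12.24 to 12.29 on the atrap arrays, while the median over all probe sets lay between 6.5 and 6.57.

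WT levels of the members ran from 14.91 down to 11.62 (log2 means, n = 3), with a median of 12.13. Since these levels chose the members, they are a description. The 3 members just inside the limit were AT3G09500, AT2G04700 and AT3G30390 at 11.62, 11.62 and 11.62, and the 3 probe sets just outside were AT5G57345, OEP16-3 and AT3G16530 at 11.62, 11.61 and 11.61. The step at the limit was 0.00092 log2 units, far smaller than the median SD of a member among WT arrays (0.12), so membership near the limit is arbitrary. The gene table gave 56 members a name or a named product and 144 a locus number alone; what these 144 encode is not described here. Among the 50 most abundant members 24 had a name, and among the last 50 there were 9.

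The highest member was RCA, Rubisco activase, the chaperone that keeps the carbon-fixing enzyme Rubisco active. It read 14.93, 14.91 and 14.90 in WT and 14.92, 14.94 and 14.85 in atrap (log2 levels), so the genotypes overlapped. The difference, atrap minus WT, was -0.0045 with a 95% interval from -0.17 to 0.16 (limma, adjusted p = 0.973). The highest value on any array was 15.01, and compression at the top of the range was not tested. The other named carbon-fixation members did not pass either. PRK, phosphoribulokinase, which makes the CO2 acceptor of the Calvin-Benson cycle, read 13.90 ± 0.04 in WT and 13.89 ± 0.02 in atrap (mean log2 level ± SD, n = 3). SBPASE, sedoheptulose-bisphosphatase of the same cycle, read 13.50 ± 0.02 and 13.49 ± 0.04. The 95% intervals of their differences ran from -0.17 to 0.15 and from -0.17 to 0.16 (limma, adjusted p = 0.944 and 0.977).

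Among members with a name, the antenna was represented by the LHCB4 genes, which encode CP29, a minor antenna protein of photosystem II. LHCB4.1 read 14.38, 14.39 and 14.30 in WT and 14.31, 14.28 and 14.27 in atrap (log2 levels). LHCB4.2 read 14.17, 14.26 and 14.09 in WT and 14.10, 13.99 and 14.09 in atrap. Neither passed (limma, adjusted p = 0.557 and 0.388), with differences of -0.07 and -0.11. LHCB4.3, the dimmest of the 3 and member number 196, stood apart. Its WT arrays read 11.61, 11.64 and 11.65 and its atrap arrays 10.64, 11.34 and 10.61, so that all mutant arrays lay below all WT arrays while atrap replicate 2 lay closest to them. It fell by 0.77 log2 units (SE, the standard error of the limma fit, 0.19; adjusted p = 0.0405), or 1.70-fold. In whole leaves, less RNA per cell and fewer cells of a type cannot be told apart. Whether its probes read the 2 paralogs in part was not tested.

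The named members that encode subunits of the photosystems and of the plastid ATP synthase showed no called difference. PSAE-1 and PSAN, small subunits of photosystem I, read 14.33 ± 0.04 and 14.10 ± 0.08 in WT and 14.25 ± 0.03 and 14.01 ± 0.05 in atrap (mean log2 level ± SD, n = 3). Of the photosystem II members, PSBY read 13.94 and 13.91, PSBW 13.45 and 13.36, and the assembly factor PSB27 13.31 and 13.35 (log2 means in WT and atrap). ATPC1, the gamma subunit of the ATP synthase, read 13.63 in both. Over the 6 photosystem and electron transport members the differences ran from -0.10 to 0.04, and 0 passed by limma at the adjusted threshold. By the gene table's names, the same class held 8 nuclear probe sets on the array, of which 1, not a member, rose and 0 fell. Of the 13421 nuclear probe sets, 11714 had a locus number alone and could enter no class. Across the named antenna, photosystem, ATP synthase and carbon-fixation genes together, 0 of 12 rose and 1 fell. Of all probe sets 6.7% were called higher and 6.41% lower, and of members with a name 1.79% and 28.6%. The median difference of the 12 was -0.05, against 0.03 over all probe sets. This group and the small groups below were put together by hand with the values known, so their counts are a description.

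**Figure D1:**
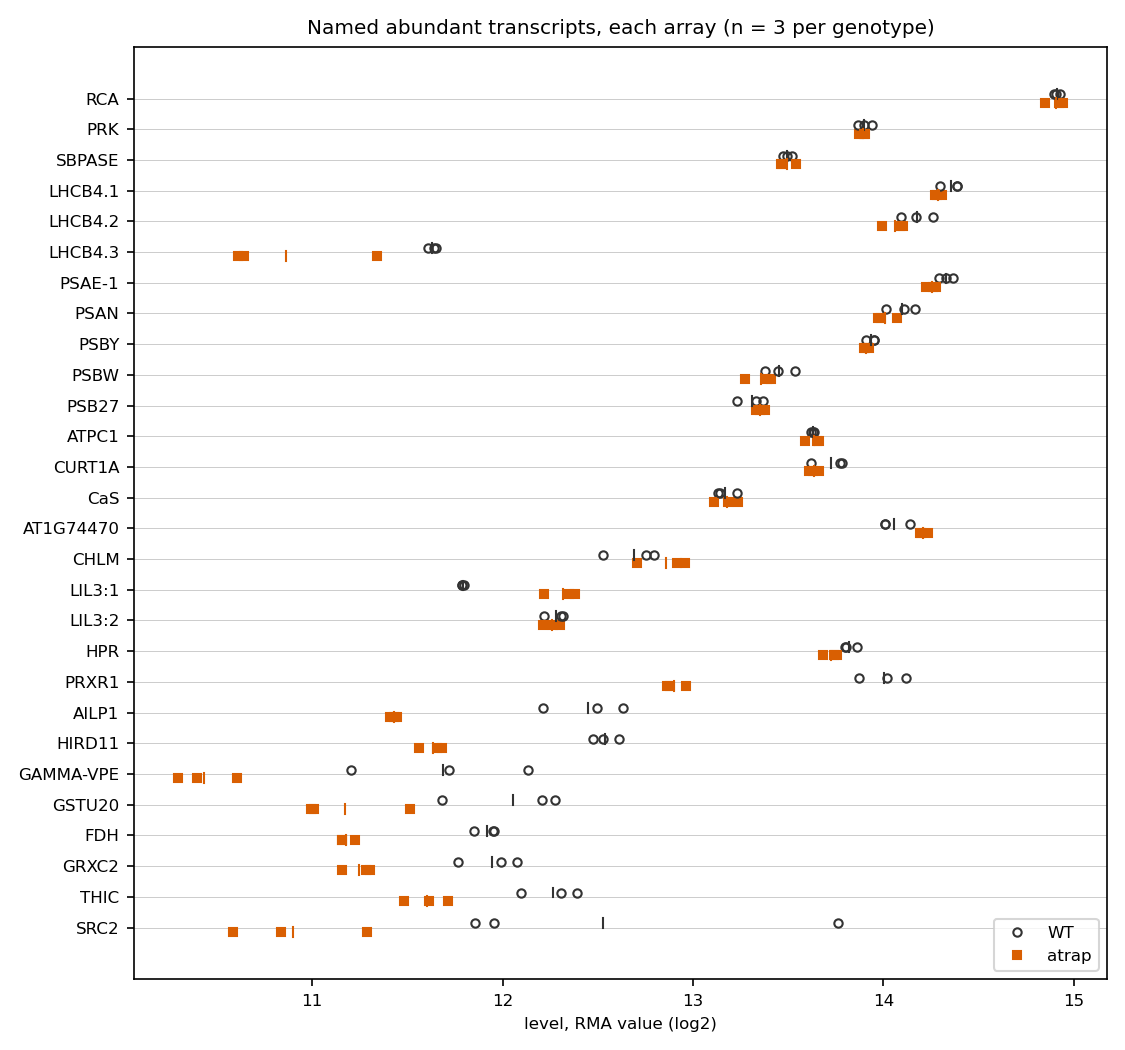
Levels of 28 named members on each array (horizontal axis, RMA value on the log2 scale; 1 line per gene). Open circles are the 3 WT arrays, filled squares the 3 atrap arrays and short vertical strokes the group means. RCA, PRK and SBPASE overlap between genotypes, PRXR1 lies far lower in atrap, LIL3:1 lies 0.53 higher, and SRC2 has 1 WT array at 13.76 far above the others.

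Of 6 named accessory proteins of the thylakoid, 0 rose and 1 fell, against 6.7% and 6.41% of all probe sets. The thylakoid is the chloroplast membrane that holds the photosystems. CURT1A (AT4G01150), which bends thylakoid membranes at the margins of their stacks, read 13.73 ± 0.09 in WT and 13.63 ± 0.02 in atrap, and CURT1C (AT1G52220) 11.90 ± 0.13 and 11.73 ± 0.04 (mean log2 level ± SD, n = 3). CaS, a calcium-binding thylakoid protein, and TROL, which tethers ferredoxin-NADP reductase, differed by 0.01 and 0.05 on the log2 scale. None of these 4 passed (limma, smallest adjusted p = 0.249, CURT1C). NdhS did pass. It encodes a nuclear subunit of the chloroplast NDH complex, which returns electrons from photosystem I to the electron carriers. Its WT arrays read 11.54, 11.76 and 11.59 and its atrap arrays 11.22, 10.91 and 11.21 (log2 levels), without overlap, and it fell by 0.52 log2 units (SE 0.11; limma, adjusted p = 0.0284). PIFI, a stroma protein also linked to NDH activity, read 11.52, 11.85 and 11.55 in WT and 11.40, 11.36 and 11.28 in atrap, a difference of -0.30 that did not pass (limma, adjusted p = 0.109).

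Among named members the single called rise was that of LIL3:1, a light-harvesting-like protein that holds geranylgeranyl reductase at the membrane and serves chlorophyll synthesis. Its WT arrays read 11.79, 11.79 and 11.80 and its atrap arrays 12.38, 12.35 and 12.22 (log2 levels), a gap larger than the spread of either genotype. The difference was 0.53 (SE 0.08; limma, adjusted p = 0.0103), or 1.44-fold. Its paralog LIL3:2 read 12.28 ± 0.05 in WT and 12.26 ± 0.04 in atrap (mean log2 level ± SD, n = 3), a difference of -0.02 with an adjusted p of 0.888 by limma. The geranylgeranyl reductase gene itself (AT1G74470), whose enzyme makes the phytol tail of chlorophyll, read 14.14, 14.01 and 14.01 in WT and 14.23, 14.19 and 14.20 in atrap. All its mutant arrays lay above all its WT arrays, but the difference of 0.15 did not pass (limma, adjusted p = 0.213). CHLM, a methyltransferase of the magnesium branch of chlorophyll synthesis, differed by 0.17 and overlapped between genotypes (limma, adjusted p = 0.355).

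Photorespiration recovers carbon from a side reaction of Rubisco. HPR, the peroxisomal hydroxypyruvate reductase, read 13.86, 13.80 and 13.80 in WT and 13.74, 13.76 and 13.68 in atrap (log2 levels), a difference of -0.10 without overlap that did not pass (limma, adjusted p = 0.410). LrgB, the plastid glycolate and glycerate transporter, differed by 0.15 in the other direction (adjusted p = 0.228 by limma). The plastid redox members with a name were the thioredoxins ATHM2 and THX and NADP-malate dehydrogenase (AT5G58330). Their differences ran from -0.13 to 0.08, and limma called 0 of the 3.

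Of 6 named members of cytosolic and mitochondrial carbon metabolism, 3 fell and 0 rose, against 6.41% and 6.7% of all probe sets. Among all members with a name, 28.6% fell and 1.79% rose. FDH, the mitochondrial formate dehydrogenase, read 11.85, 11.95 and 11.96 in WT and 11.16, 11.22 and 11.16 in atrap (log2 levels). It fell by 0.74 log2 units (SE 0.07; limma, adjusted p = 0.00519), or 1.67-fold, and the gap between the genotypes was several times the spread within either. TPI, the cytosolic triose phosphate isomerase, fell by 0.28, and ALDH11A3, the non-phosphorylating glyceraldehyde-3-phosphate dehydrogenase, by 0.26 (log2 scale, limma, adjusted p = 0.0435 each). Replicates of both lay close together, with a WT SD of 0.04 for TPI and 0.01 for ALDH11A3. GAPC2, a cytosolic glyceraldehyde-3-phosphate dehydrogenase of glycolysis, cICDH, the cytosolic isocitrate dehydrogenase, and CYTC-1, a cytochrome c, differed by -0.11, 0.08 and -0.06 and did not pass by limma.

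Of 4 named enzymes of glutathione, glutaredoxin and carbonyl detoxification, 3 fell and 0 rose, beside 6.41% and 6.7% of all probe sets. The shares among all members with a name were 28.6% and 1.79%. GSTU20, a glutathione S-transferase, read 11.68, 12.27 and 12.21 in WT and 10.99, 11.51 and 11.01 in atrap (log2 levels), where the lowest WT array and the highest mutant array lay close together. It fell by 0.88 log2 units (SE 0.20; limma, adjusted p = 0.0310). GSTL3, of the lambda class of these transferases, fell by 0.61, and GRXC2, a glutaredoxin that reduces disulfides with glutathione, fell by 0.70 (log2 scale, limma, adjusted p = 0.0155 and 0.0104). AOR, an alkenal and alkenone reductase that removes reactive carbonyls, differed by 0.03 (limma, adjusted p = 0.854). On the whole array, the gene table's names put 31 nuclear probe sets in the metallothionein and redox class, of which 3 rose and 7 fell, with a median difference of -0.05. This class holds ATHM2 and THX but not AOR. Of its 26 probe sets that are not members, 3 rose and 4 fell.

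Of 3 members with a name in proteolysis, 0 rose and 2 fell, where 6.7% of all probe sets rose and 6.41% fell. Among all members with a name, 1.79% rose and 28.6% fell. GAMMA-VPE, the gamma vacuolar processing enzyme, which matures other vacuolar proteins, read 11.20, 11.72 and 12.13 in WT and 10.30, 10.60 and 10.40 in atrap (log2 levels). It fell by 1.25 log2 units (SE 0.22; limma, adjusted p = 0.0162), or 2.38-fold, and dropped from rank 181 in WT to rank 602 in atrap. APA1, a vacuolar aspartic protease, fell by 0.40 (log2 scale, limma, adjusted p = 0.0197), with arrays at 12.53, 12.58 and 12.69 in WT and 12.21, 12.22 and 12.17 in atrap. UBC28, a ubiquitin-conjugating enzyme, differed by -0.21 and overlapped (limma, adjusted p = 0.222). Of 79 nuclear probe sets that their names put in the class of ubiquitin and proteolysis, 4 rose and 10 fell, with a median difference of 0.02. Of the 76 that are not members, 4 rose and 8 fell.

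Of 4 members grouped here under stress names, 0 rose and 2 fell, against 6.7% and 6.41% of all probe sets. The shares among all members with a name were 1.79% and 28.6%. HIRD11 (AT1G54410), a small dehydrin that binds metal ions, read 12.47, 12.53 and 12.61 in WT and 11.68, 11.65 and 11.56 in atrap (log2 levels), and fell by 0.91 log2 units (SE 0.08; limma, adjusted p = 0.00413), or 1.87-fold. AILP1, grouped here by its symbol, fell by 1.02 log2 units (SE 0.11; limma, adjusted p = 0.00640). SRC2, named for its cold-regulated soybean counterpart, had 1 WT array far above the others. Its WT arrays read 11.86, 11.96 and 13.76 and its atrap arrays 10.84, 11.29 and 10.58, without overlap. The difference of -1.62 had a standard error of 0.49 and did not pass (limma, adjusted p = 0.0701). DI19, drought-induced 19, differed by -0.18 and overlapped (limma, adjusted p = 0.353). The class of cold, dehydration and stress names, which leaves out AILP1, held 18 nuclear probe sets, with a median difference of -0.28. Of its 3 members 0 rose and 1 fell by limma, and of its 15 other probe sets 0 rose and 5 fell.

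The most abundant member to fall was PRXR1, a class III peroxidase gene, at rank 9 in WT and rank 43 in atrap. It read 13.87, 14.02 and 14.12 in WT and 12.88, 12.96 and 12.86 in atrap (log2 levels), a difference of -1.10 (SE 0.09; limma, adjusted p = 0.00413), or 2.15-fold. All mutant arrays lay far below all WT arrays. ECS1, a member at rank 7, read 13.90, 14.20 and 14.13 in WT and 13.55, 13.84 and 13.49 in atrap. Its difference of -0.45 lay just outside the threshold (limma, adjusted p = 0.0565).

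Of 4 further named biosynthetic members 0 rose and 2 fell, where all probe sets gave 6.7% and 6.41%, and all members with a name 1.79% and 28.6%. THIC, which makes the pyrimidine part of thiamine, fell by 0.66 and PMEAMT, a phosphoethanolamine methyltransferase of choline synthesis, by 0.62 on the log2 scale (standard error 0.10 each, limma, adjusted p = 0.0125 and 0.0151). GME, an epimerase of ascorbate synthesis, read 11.98 ± 0.11 in WT and 12.18 ± 0.05 in atrap, and SAMDC, which supplies polyamine synthesis, 13.22 ± 0.05 and 13.37 ± 0.04 (mean log2 level ± SD, n = 3). The mutant arrays of both lay above all WT arrays, but neither passed (limma, adjusted p = 0.167 and 0.199). The transporters SWEET11, which exports sucrose toward the phloem, NCL (AT1G53210), an exchanger of sodium and calcium, and NPF6.4 (AT3G21670) differed by -0.04, -0.02 and 0.16, and limma called 0 of the 3. WLIM2b, a LIM-domain protein that bundles actin, fell by 0.37 on the log2 scale (limma, adjusted p = 0.0397). FUG1, a plastid translation initiation factor, and CP5 differed by 0.13 and -0.19 and did not pass by limma (adjusted p = 0.373 and 0.406).

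Over all 200 members, 70 passed an adjusted p of 0.05 by limma (35%), against 13.1% of all probe sets. A rise was called in 30 members (15%), against 6.7% of all probe sets, and a fall in 40 (20%), against 6.41%. Bright probe sets were called more often in general: of the next 800 nuclear probe sets by WT level, 26.6% passed. The genotypes did not overlap in 68% of members, against 35.6% of all probe sets and 56.9% of the 800. Of the members 67 were higher without overlap, where 19.1% of all probe sets were, and 69 were lower, where 16.5% were. The median difference over the members was -0.03, with the central part of the distribution, from its 25th to its 75th percentile, between -0.27 and 0.28. The number of calls rested on single arrays. Leaving out WT replicate 2 gave 9 of the 200, beside 1.93% of all probe sets, and leaving out WT replicate 3 gave 25, beside 5.54% of all. Leaving out atrap replicate 1 gave 9, beside 1.54% of all, and leaving out atrap replicate 3 gave 12, beside 2.77% of all. The fit that lacked WT replicate 1 called 89 of the 200, beside 17% of all probe sets. The fit that lacked atrap replicate 2 called 64, beside 11.7% of all. The fit that lacked both WT replicate 3 and atrap replicate 2 called 45, beside 9.47% of all.

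Called falls ran from -0.26 to -1.83 (log2 differences), or 1.20- to 3.56-fold, while called rises ran from 0.33 to 0.81, or 1.26- to 1.75-fold. WT level chose the members, so transcripts that rose far from a lower WT level were left out, such as AT5G42760 at 1.53. The unequal sizes are therefore a description. A rise of at least 1 log2 unit was called in 0 members, while 154 of the 399 calls of that size over all probe sets were rises. Of the 56 members with a name 1 rose and 16 fell, and of the 144 with a locus number alone 29 rose and 24 fell, while 6.7% of all probe sets rose and 6.41% fell. The difference between members with and without a name was not tested. Differences were smallest among the brightest genes. The 50 most abundant members had a median size of difference of 0.15 with 1 rise and 8 falls, and the next groups of 50 had 0.34, 0.32 and 0.36. Replicates of the top 50 were also the closest, with a median SD of 0.08 in WT and 0.05 in atrap. Of the 200 members, 76 (38%) differed by under 0.2 log2 units.

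**Figure D2:**
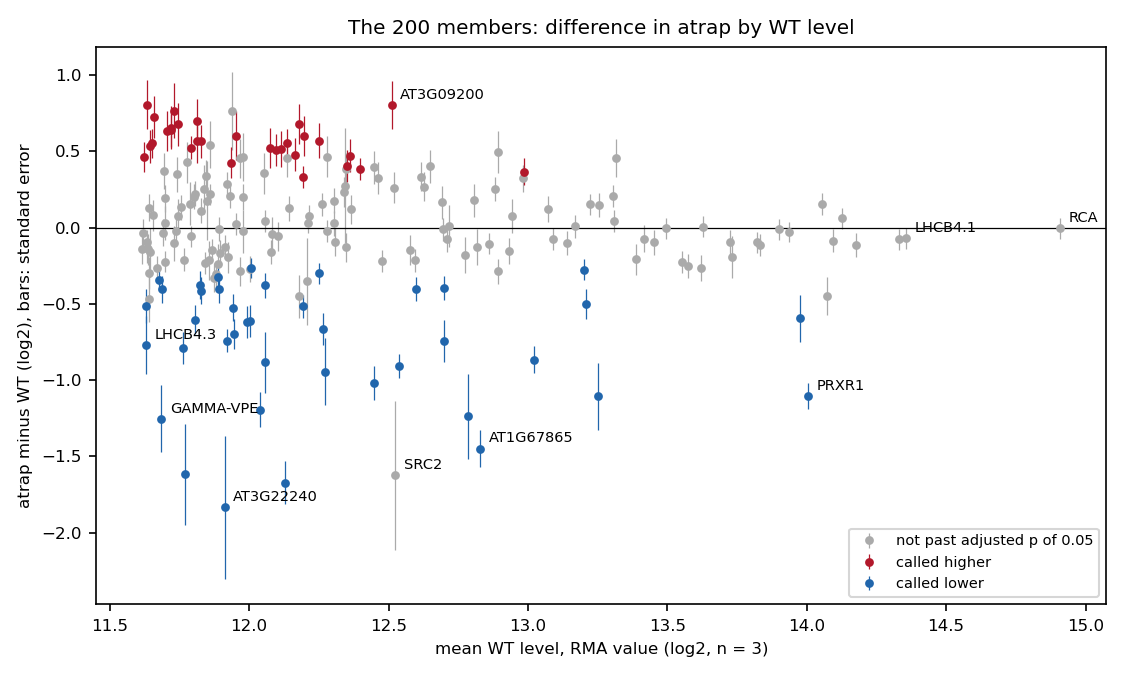
Difference in level, atrap minus WT (vertical axis, log2, bars are standard errors of the limma fit), against mean WT level (horizontal axis, log2, n = 3) for the 200 members. Red points are the 30 called higher, blue points the 40 called lower and grey points the 130 that did not pass. Among members above a WT level of 13.5, PRXR1, AT2G25510 and ECS1 lie lowest, followed by AT1G51400 at -0.26.

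Of the 10 members past the adjusted threshold that fell by at least 1 log2 unit (1.75% of all probe sets passed with a difference of that size in either direction), 7 carried a locus number alone. AT3G22240 had the largest, at -1.83, (SE 0.47; limma, adjusted p = 0.0451). Its WT arrays read 10.91, 12.25 and 12.58 and its atrap arrays 9.92, 10.78 and 9.54 (log2 levels), so that WT replicate 1 lay just above atrap replicate 2. AT1G64370 fell by 1.67 on the log2 scale and a smaller SE of 0.14 (limma, adjusted p = 0.00413), its arrays at 11.97, 12.05 and 12.36 in WT and 10.37, 10.68 and 10.31 in atrap. AT2G23120 read 11.27, 11.41 and 12.63 in WT, where replicate 3 stood above the others, and 10.15 ± 0.17 in atrap (SD, n = 3), and fell by 1.62 log2 units (SE 0.33; limma, adjusted p = 0.0244). AT1G67865 fell by 1.45 on the log2 scale, AT1G65490 by 1.24, AT3G28940 by 1.19, AT2G41090 by 1.11 and AT5G54940 by 0.94 (limma, adjusted p from 0.00413 for AT1G67865 to 0.0335 for AT5G54940). AT2G25510, at rank 10 in WT the most abundant of the falling loci without a name, read 13.71, 14.14 and 14.08 in WT and 13.21, 13.64 and 13.29 in atrap, and fell by 0.59 on the log2 scale (limma, adjusted p = 0.0465).

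Within this list, chosen by WT level, the called rises were more alike in size. The largest were AT3G07110 and AT3G09200 at 0.81 each, AT4G17390 at 0.77, AT3G11510 at 0.73 and AT5G16130 at 0.70 (log2 differences, limma, adjusted p from 0.0191 for AT3G11510 to 0.0337 for AT4G17390). AT3G07110 read 12.00, 11.49 and 11.41 in WT and 12.49, 12.31 and 12.52 in atrap (log2 levels). AT3G09200 read 12.87, 12.40 and 12.27 in WT and 13.35, 13.21 and 13.39 in atrap. In both genes WT replicate 1 was the highest WT array and atrap replicate 2 the lowest mutant array. AT3G62870, AT5G27850, AT2G19730, AT3G02560, AT4G16720, AT2G01250 and AT4G39200 followed at 0.68, 0.68, 0.66, 0.64, 0.63, 0.60 and 0.60. AT5G15200, the most abundant member called higher, read 13.11, 12.97 and 12.87 in WT and 13.39, 13.28 and 13.40 in atrap, a difference of 0.37 (limma, adjusted p = 0.0383). AT2G26500, the most abundant member known by locus number alone, read 14.15, 14.12 and 14.11 in WT and 14.19, 14.17 and 14.21 in atrap, without overlap but with a difference of only 0.06 that did not pass (limma, adjusted p = 0.593).

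This ordering of arrays ran through the calls. WT replicate 1 was the highest WT array in 27 of the 30 members called higher and the lowest in 33 of the 40 called lower, so that it lay nearest to the mutant. Over all probe sets it was the highest WT array in 76.9% of calls in the upward direction and the lowest in 62.1% of those in the downward direction. Atrap replicate 2 was the lowest mutant array in 27 of the 30 rises and the highest in 31 of the 40 falls, against 53.6% and 47.5% of such calls over all probe sets. WT replicate 1 also had the lowest hybridisation spike-in value and the lowest poly-A value among WT arrays, and the part of these readings in the result was not tested. Members varied more among WT than among mutant arrays, with median SDs over the members of 0.12 in WT and 0.07 in atrap. The SD was larger in WT for 149 of 200 (74.5%). It was also larger in WT for 61% of the next 800 nuclear probe sets by WT level and for 56.8% of all probe sets.

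**Figure D3:**
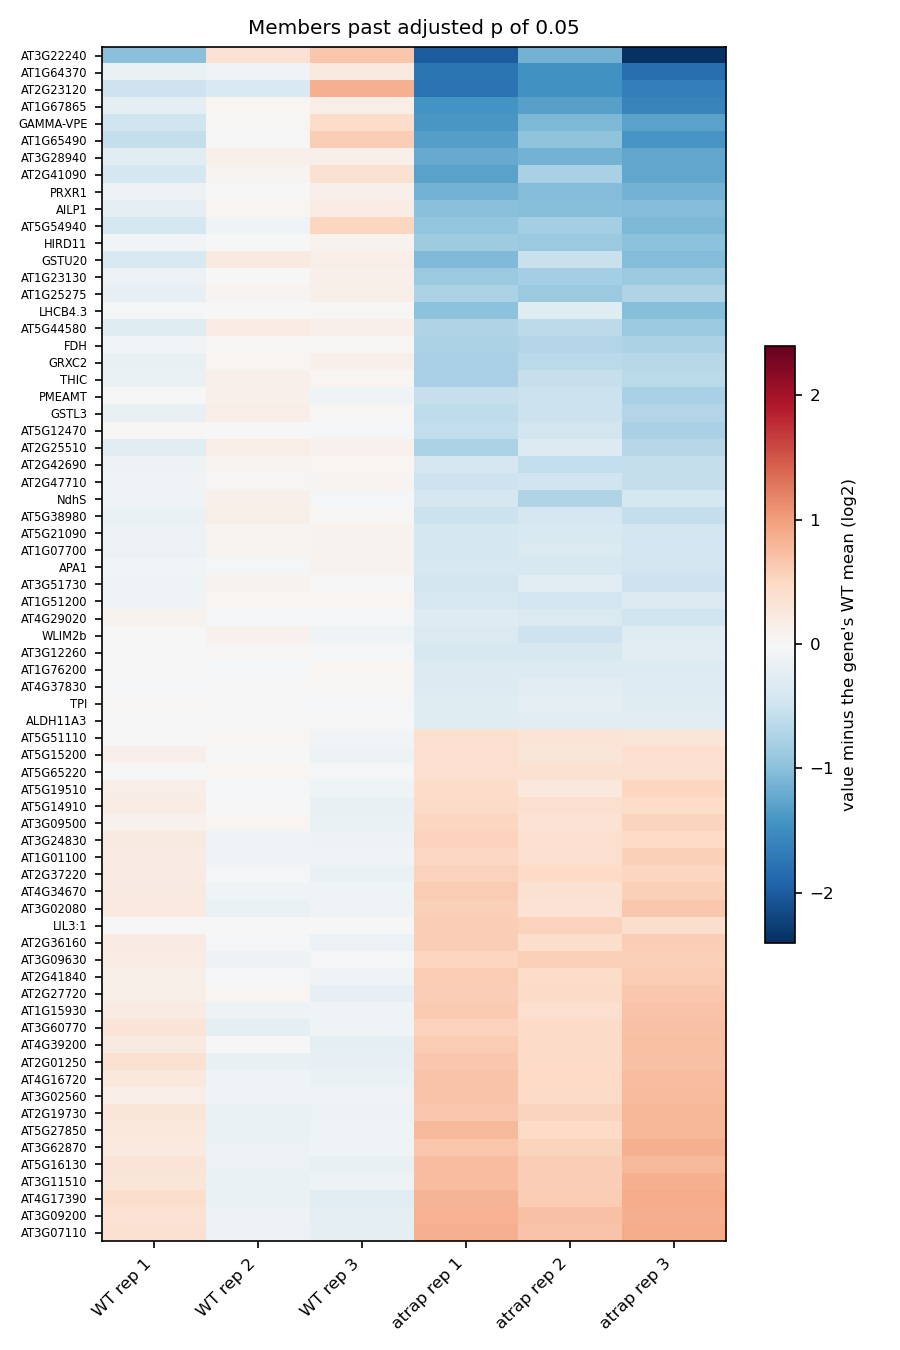
The 70 members past the adjusted threshold (rows, ordered by difference) on the 6 arrays (columns). Colour is the value minus the gene's WT mean on the log2 scale, blue below and red above. WT replicate 1 leans toward the mutant in most rows, and the darkest blue rows, such as AT3G22240 and AT2G23120, also vary among WT arrays.

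The order of abundance in the mutant, which the choice of members did not use, was largely the same at the top. RCA, LHCB4.1, PSAE-1 and AT2G26500 held ranks 1, 2, 3 and 5 in both genotypes, and 9 of the 12 highest of WT were among the 12 highest of atrap. Of the 50 highest in WT, 40 were among the 50 highest in atrap, and of the 200 members 158 (79%) were among the 200 highest in atrap. The 42 that left included 26 called lower and 0 called higher by limma, 13 of them with a name. The largest drops in rank were those of AT3G22240 from 132 to 827, AT2G23120 from 162 to 777, AT1G64370 from 101 to 590, GAMMA-VPE from 181 to 602 and SRC2 from 64 to 414.

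The 42 probe sets that took their places had a median difference of 0.59, and 30 of them were called higher. Having a higher rank in 1 genotype than in the other chose both sets of 42, so the directions of their differences follow from the choice and are a description. AT5G42760 came from furthest, from rank 748 to rank 179. It read 10.37, 10.03 and 10.20 in WT and 11.48, 12.29 and 11.42 in atrap (log2 levels), a difference of 1.53 (limma, adjusted p = 0.0113). AT3G16080, AT5G61170, AT2G47610 and AT4G17560 rose from ranks 429, 374, 343 and 338 to ranks 196, 161, 165 and 160. What the entering loci with a locus number alone encode is not described here. PGY1 (PIGGYBACK1), a ribosomal protein L10a gene, was among the 3 of the 42 to which the gene table gave a name or synonym. It moved from rank 248 to rank 112, with arrays at 11.71, 11.33 and 11.32 in WT and 12.18, 12.16 and 12.35 in atrap and a difference of 0.77 (limma, adjusted p = 0.0136). CLPP4, a subunit of the plastid Clp protease, moved from rank 215 to rank 169 with a difference of 0.20 that did not pass (limma, adjusted p = 0.111).

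**Figure D4:**
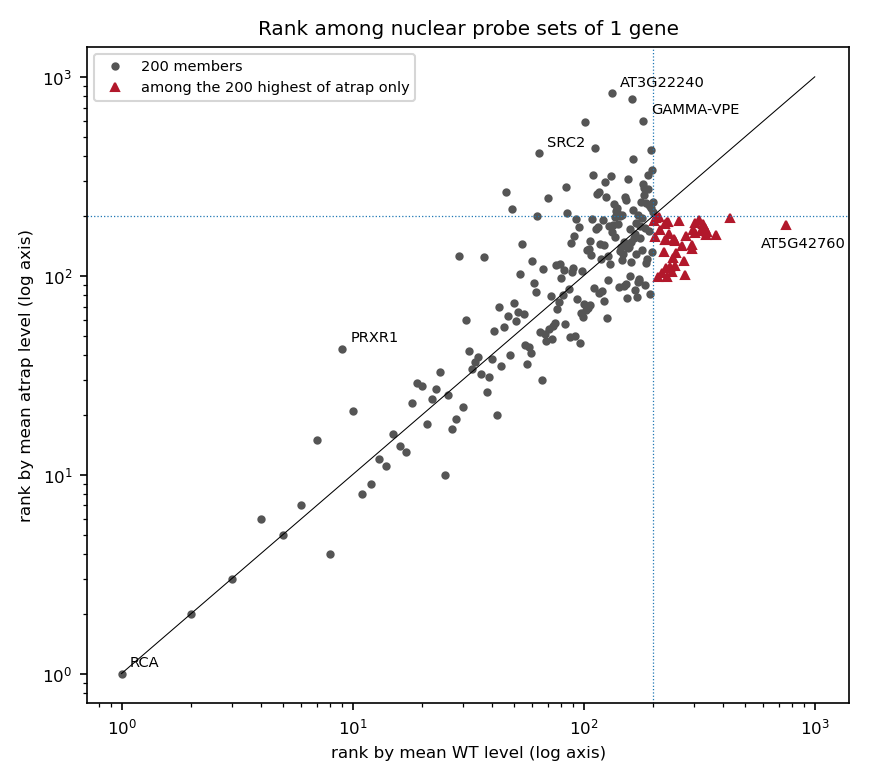
Rank by mean atrap level against rank by mean WT level among 13421 nuclear probe sets of 1 gene (both log axes, rank 1 is the highest level). Dots are the 200 members, triangles the 42 probe sets among the 200 highest of atrap but not of WT, dotted lines mark the limit of 200 and the diagonal marks equal rank. The top ranks lie on the diagonal, and 42 members lie above the horizontal limit.

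The WT arrays both chose the members and entered the comparison, and the balance of directions changed with the arrays that made the choice. With the 200 highest of the atrap arrays in place of WT, 60 were called higher and 14 lower. With the 200 highest over all 6 arrays, 49 were called higher and 25 lower, and 175 of these were members. With the median of the WT arrays the counts were 25 and 43. The total changed little, at 74, 74 and 68 of 200 against 70. Scaling moved the balance as well: of the called members 42.9% were higher in the values as deposited (30 of 70), 53.2% after centring each array on its median (42 of 79) and 34.3% after a further quantile normalization (24 of 70).

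**Figure D5:**
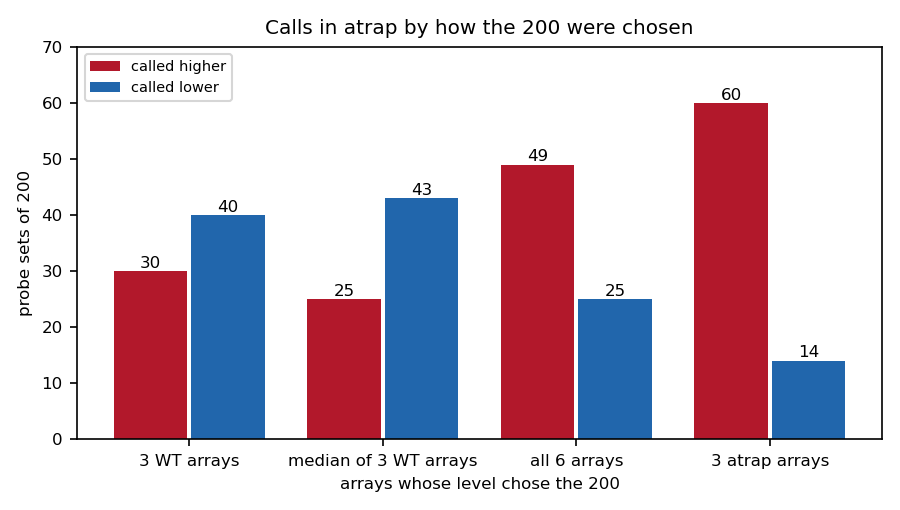
Number of probe sets called higher (red) and lower (blue) in atrap among 200, for lists chosen by the mean of the 3 WT arrays, the median of the 3 WT arrays, the mean of all 6 arrays and the mean of the 3 atrap arrays. Calls are at an adjusted p of 0.05 by limma, and the bars start at 0. Rises go from 30 to 60 and falls from 40 to 14 as the choice moves from WT to atrap.

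Members were spread over the chromosomes much like the array: 28% lay on chromosome 1, 15% on 2, 22% on 3, 15% on 4 and 20% on 5, against 25.9%, 16.5%, 20.5%, 14.6% and 22.5% of nuclear probe sets of 1 gene. Just 1 pair of members were immediate neighbours among protein-coding genes in the order of the gene table, CYTC-1 (AT1G22840) and AT1G22850 on chromosome 1. Their differences were -0.06 and 0.25, and neither passed (limma, adjusted p = 0.640 and 0.349).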

How the data were processed

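Leaf RNA was hybridised to 6 Affymetrix arrays. The authors deposited 1 value per probe set, on a log2 scale as judged from their range, and the submitters' processing notes name RMA; its version and the probe definition are not stated in those notes. RMA equalises arrays, which hides any shift shared by every transcript. Of 22810 probe sets, 64 controls were left out and 22746 fitted (lmFit, eBayes, two-sided, no block, Benjamini-Hochberg over all; limma 3.58.1, R 4.3.3) after a test on simulated data. GEO's annotation paired 13513 with 1 gene, of which 13436 matched TAIR10.1, which gave names, gene order and organelle status. Groups follow the titles. Members, classes and lists were chosen with earlier results of these data known. The rule for named genes took the 12 highest members, the 12 largest called rises and falls, class leaders, the 3 probe sets on either side of the limit, the 5 largest moves in rank either way, and RAP. The remaining members with a name, the markers, PGY1 and CLPP4 lie outside it, picked with their values in view. Planned motif and protein searches were not run, for want of sequences. Alternatives were a replicate block, other scalings, dim filters, variance models, a stricter threshold, other choices of members and leaving out arrays. Python 3.11.15, pandas 2.3.3 and matplotlib 3.10.9 were used.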

Additional observations from a re-analysis of the deposited data

How the results depend on the processing

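Over all probe sets the 2981 calls became 5325 with array weights, 48 when each probe set's variance was estimated alone, 350 at an adjusted p of 0.01 and 350 to 3863 when 1 array was left out (WT replicate 2 left out, 438; WT replicate 3, 1260; atrap replicate 1, 350; atrap replicate 3, 629). Both dim filters, median centring, quantile normalization, the intensity trend and robust variance kept it within 1.5 times. Member calls, 70 in the report, were 106 with array weights, 4 without shared variance, 9 at an adjusted p of 0.01, 28 of 100 members, 133 of 400, and 9 to 89 when 1 array was left out. Without WT replicate 3 and atrap replicate 2, an alternative chosen after seeing the data, they were 45. The stricter threshold and other list sizes change the count by construction; otherwise the cause was not tested. Members shared with the highest of atrap were 77 of 100 and 337 of 400, and 150 to 161 of 200 when 1 array was left out. With the replicate number as a block 50 members were called, 49 of them among the 70, and 2101 of all probe sets; arrays of the same number had deviations correlated by 0.13, 0.02 and -0.15, so the numbers were not taken to pair plants. All 70 member calls kept their sign in each alternative fit. The genotypes did not overlap in any of the 30 rises and 40 falls, so leaving out or weighting arrays could not change a sign. Filters and variance models leave the difference as it is, so the kept signs do not show that the calls are stable. Of 47 called probe sets named in the text or by the rule, 45 lost the call in at least 1 alternative, 44 of them without shared variance, and of 45 not called, 17 changed sign in at least 1. Arrays give no depth, and the gene table limits what can be a member.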
